A study of Mus musculus with 4 samples.

Results

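The nuclear genes of oxidative phosphorylation encode most of the proteins of the 5 complexes with which mitochondria make ATP. The genes described here are the protein-coding genes whose names begin with Nduf, Uqcr, Cox4 to Cox8 or Atp5, together with the succinate dehydrogenase genes Sdha, Sdhb, Sdhc and Sdhd. They numbered 89 of the 23601 features tested, where a feature is the sum of the protein-coding transcripts of a gene or the sum of its transcripts of other types. Of the 89 genes, 80 encode known subunits: 36 belong to complex I, 4 to complex II, 8 to complex III, 16 to complex IV and 16 to complex V. A further 8 are assembly factors of complex I, and Atp5s, named after ATP synthase, is not a structural subunit.

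In the respiratory chain, complex I takes electrons from NADH and complex II takes them from succinate, and both pass them to ubiquinone. Complex III hands them on to cytochrome c and complex IV to oxygen, while complexes I, III and IV pump protons out of the mitochondrial matrix, and complex V, the ATP synthase, makes ATP as protons flow back. The mitochondrial genome encodes part of every complex except complex II, and the remaining subunits are made from nuclear genes and imported, which neurons depend on because most of their ATP comes from this pathway.

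Whole transcriptome sequencing had been performed on cortex from 2 male mice that carry APPswe/PS1ΔE9 transgenes (APP) and from 2 male WT mice, all 12 months old and of strain C57BL/6 by their labels (C57BL/6J for WT in the study's methods), to find RNAs that differ in this model of Alzheimer's disease. The transgenes encode a mutated amyloid precursor protein and a presenilin that lacks an exon. In this mouse line they are driven by the promoter of the prion protein gene, which is active in many cells of the brain. The labels name no treatment for either group. The totals of the APP libraries were 28525117 counts (APP.3) and 31392983 counts (APP.4), and those of the WT libraries 43881196 (WT.1) and 35623228 (WT.2), and the 89 genes together had 171732, 178387, 259081 and 215116 of them. With 2 mice in each group, p-values rest on the spread between these mice, and edgeR draws each gene's spread toward that of other features. For any single value the smallest p of an exact permutation test, taken two-sided, is 0.3333. The adjusted p-values below come from the quasi-likelihood test of edgeR, with the Benjamini-Hochberg method applied over all 23601 features. Levels are given as CPM, that is, counts scaled to a common library total after TMM normalization, and SE is a standard error. Positive log2 fold changes mean a higher level in APP.

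App, whose counts can include reads of the human transgene, had 2687 and 2384 CPM in the APP libraries and 856 and 905 CPM in the WT libraries, a log2 fold change of 1.53 (SE 0.07, 95% interval 1.36 to 1.69, adjusted p = 0.00000259). Both libraries labelled as transgenic were therefore far above both WT libraries. Markers of cortical excitatory neurons were present in every library. They summed to 1245 and 1234 CPM in APP against 1411 and 1348 CPM in WT, with Camk2a, a kinase of the postsynaptic density, the most abundant. With edgeR, 0 of 8 passed an FDR of 0.05 and 3 had an unadjusted p under 0.05, where 10.9% of all features had one. All 8 had a negative log2 fold change, and 5 were lower in both APP libraries, where 19.8% of all features were. General neuronal markers, led by the synaptic protein gene Snap25, summed to 4599 and 3634 CPM in APP against 4079 and 4143 CPM in WT, and 0 of 8 were called by edgeR, with 1 at an unadjusted p under 0.05. This sum was highest in APP.3 and lowest in APP.4, and the high place of APP.3 came from the vesicle protein gene Syt1, with 1268 and 619 CPM in APP against 724 and 706 CPM in WT. Without Syt1 the sum was 3331 and 3014 CPM in APP against 3354 and 3438 CPM in WT, lower in both APP libraries. The groups of this sum overlapped when levels were scaled to library totals without TMM. With TMM they overlapped when any other single marker was left out. Of the 8 markers, 6 had a negative log2 fold change. Markers of the striatum summed to 134 and 292 CPM in APP against 196 and 218 CPM in WT, with APP.3 lowest and APP.4 highest, and 0 of 6 were called by edgeR, with 0 at an unadjusted p under 0.05.

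Markers of other cell types and of neighbouring brain regions were also counted. Among 9 microglial markers 7 were called higher in APP at an FDR of 0.05 with edgeR, where 1.04% of all features were. Among the 7 were C1qa, Cx3cr1, Csf1r, C1qc, Aif1 and P2ry12. All 9 had a positive log2 fold change, and the list summed to 397 and 489 CPM in APP against 253 and 251 CPM in WT. Of 7 astrocyte markers, Gfap (log2 fold change 2.82) and the water channel gene Aqp4 (0.73) were called higher. All 7 had a positive log2 fold change, and their list summed to 4262 and 4604 CPM in APP against 3786 and 3432 CPM in WT. Of 6 oligodendrocyte markers, all with a positive log2 fold change, 3 were called higher, among them the myelin genes Mag and Cnp. The sum was 1479 and 1298 CPM in APP against 957 and 1073 CPM in WT. Of 6 interneuron markers, the calcium-binding protein gene Pvalb was called lower, by 0.54 on the log2 scale, where 0.157% of all features were called lower. The list summed to 470.1 and 571 CPM in APP against 567 and 527 CPM in WT. Of these markers 5 had a negative log2 fold change, and 2 had an unadjusted p under 0.05 with edgeR. Without Gad2 their sum was 339.5 and 397 CPM in APP against 426 and 402 CPM in WT. That sum was lower in both APP libraries, also by library totals, whereas the groups overlapped when any other single marker was left out. Of 5 counted hypothalamic markers out of 7, Sim1, Avp and Oxt were called higher, from near 0 in WT. All 5 had a positive log2 fold change, and the list summed to 3.94 and 5.96 CPM in APP against 0.477 and 0.367 CPM in WT. Endothelial markers (57.8 and 53.4 CPM in APP against 58.3 and 53.3 CPM in WT), pericyte and smooth muscle markers (119.8 and 125 CPM in APP against 120.3 and 111 CPM in WT), thalamic markers (209.9 and 189 CPM in APP against 211 and 203 CPM in WT, nearly all of it Rora) and the 2 counted choroid plexus markers of 4 (3.91 and 2.51 CPM in APP against 3.001 and 4.17 CPM in WT) had 0 genes called by edgeR and overlapping sums, although with library totals in place of TMM the pericyte sum was higher in both APP libraries; at an unadjusted p under 0.05 these 4 lists had 0, 1, 3 and 0 genes. The 3 thalamic genes were Prkcd, Tcf7l2 and Plekhg1, with log2 fold changes of 0.37, 0.93 and 0.47, while Rora and Lef1 had -0.11 and -0.11. Without Rora the thalamic sum was 20.6 and 22.6 CPM in APP against 15.2 and 15.8 CPM in WT, higher in both APP libraries. The part of these cell types in the levels of the oxidative phosphorylation genes was not tested, and in bulk cortex fewer cells of a type and less RNA per cell cannot be told apart.

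None of the 89 genes passed an FDR of 0.05 in the comparison of APP with WT: 0 were called by edgeR's quasi-likelihood test, against 282 of all 23601 features (1.19%), of which 245 were higher (1.04%) and 37 lower (0.157%). At the study's additional fold change of 1.5, 210 features (0.89%) were called and again 0 of the 89. At an unadjusted p under 0.05 the number was also 0, where 2572 features (10.9%) had one. It was 0 with DESeq2 (6.31% of all features) and with edgeR's exact test (9.72%), and 1, Atp5g1, with edgeR's earlier quasi-likelihood method (10.7%). The smallest adjusted p of any member was 0.467, of Atp5g1. The median log2 fold change of the 89 genes was -0.02, with quartiles of -0.07 and 0.02, and that of all features was 0.00, with quartiles of -0.12 and 0.17. Of the members, 60 had a negative and 29 a positive value.

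These data bounded the differences closely for most of the genes. Their median standard error was 0.08 on the log2 scale, against 0.16 over all features and 0.11 over all protein-coding features. The 95% interval of the log2 fold change lay within a fold of 1.25 in either direction for 74 of the 89 genes and within a fold of 1.5 for 84. Over all 23601 features these numbers were 6627 and 12843. The interval included 0 for all 89 genes. The 5 genes whose interval reached past a fold of 1.5 were Cox4i2, Cox6a2, Cox7a1 and Cox7b2, each with few counts, and Ndufaf6. Both APP libraries were above both WT libraries for 7 members, where 20.9% of all features had this order, and both were below for 21, where 19.8% did. The remaining 61 members had overlapping groups. Many of these gaps were narrow: with levels scaled to library totals in place of TMM, 8 members were above, where 21% of all features were, and 16 below, where 18.8% were.

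**Figure D1:**
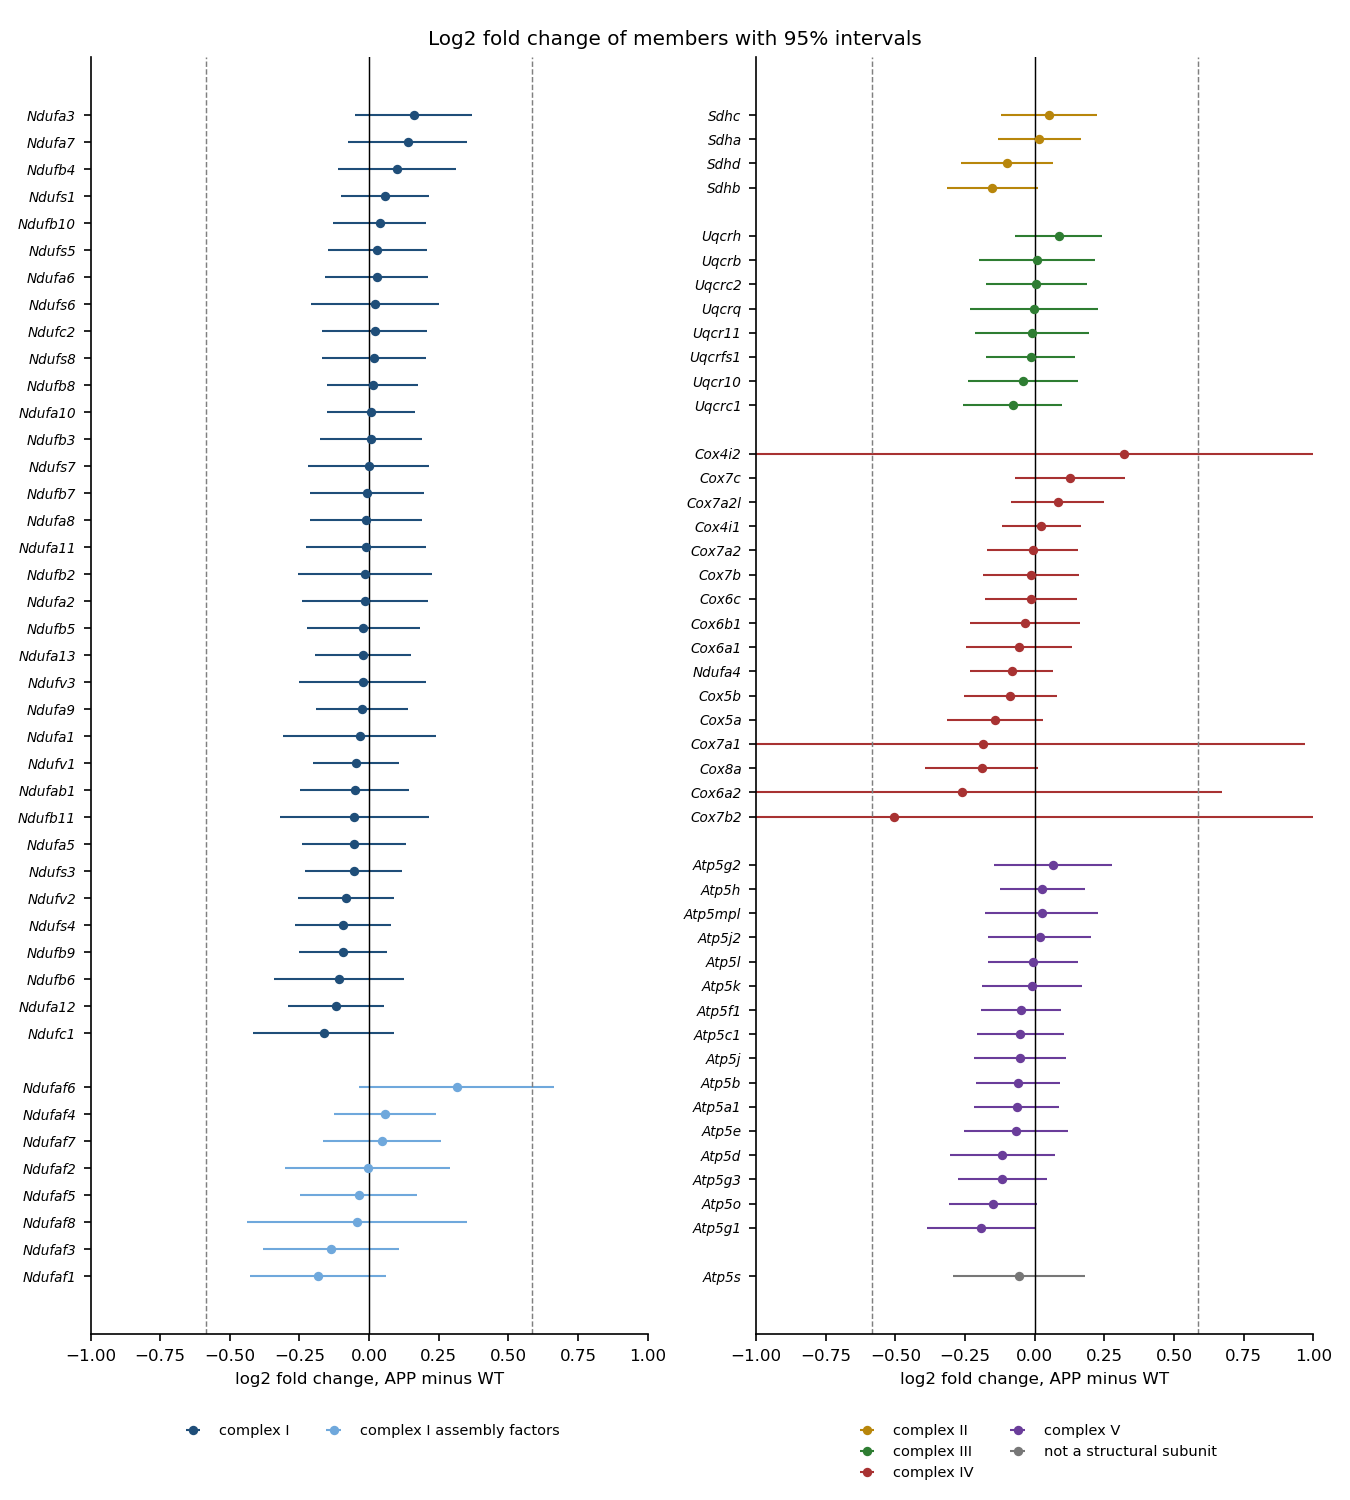
Log2 fold change (x axis, APP minus WT) of the genes, grouped and coloured by complex, as points with their 95% intervals from edgeR; dashed lines mark a fold of 1.5. Every interval shown includes 0, and those of Cox4i2, Cox6a2, Cox7a1 and Cox7b2, the genes with few counts, run past an end of the axis.

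The calls depended on which APP library was used, and the sign of the median on whether WT.2 was kept. The median log2 fold change of the 89 genes was -0.046 without APP.3, -0.024 without APP.4, -0.062 without WT.1 and 0.0021 without WT.2. Without APP.3, 1 member was called, Atp5g1, at a log2 fold change of -0.29 (adjusted p = 0.0381, edgeR), where 1710 of all features (7.25%) were called, and 15 of the 89 had an unadjusted p under 0.05, where 18.4% of all features had one. Without APP.4 the single call was Cox8a, at -0.34 (adjusted p = 0.000803, edgeR), where 1081 features (4.59%) were called, and 5 of the 89 had an unadjusted p under 0.05, where 15.6% of all features had one. Without WT.1 or WT.2 the members called numbered 0, with 0 at an unadjusted p under 0.05, and the features called were 74 (0.315%) and 111 (0.471%), with 6.18% and 6.35% at an unadjusted p under 0.05. In these fits the lone library of a group is assumed to vary like the other group, so without an APP library the spread comes from WT.1 and WT.2 alone, and without a WT library from APP.3 and APP.4 alone. The median difference between libraries of a group, without regard to sign, was 0.10 on the log2 scale between APP.3 and APP.4 and 0.06 between WT.1 and WT.2 over the 89 genes.

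The 5 complexes were compared by the summed level of their subunit genes in each library. Complex I summed to 1522 and 1498 CPM in APP.3 and APP.4 and to 1511 and 1543 CPM in WT.1 and WT.2, so that each APP library was lower than WT.2 and the groups overlapped. Complex II summed to 402 and 379 CPM in APP.3 and APP.4 and to 392 and 398 CPM in WT.1 and WT.2, with APP.3 highest and APP.4 lowest of the 4 libraries. Complex III gave 569 and 536 CPM in APP against 538 and 569 CPM in WT, and here too APP.4 was lowest, while APP.3 was near WT.2. Complex IV summed to 1079 and 1134 CPM in APP.3 and APP.4 and to 1102 and 1162 CPM in WT.1 and WT.2. It was the complex in which APP.3 was lowest, with APP.4 between the WT libraries. Complex V, the most abundant, summed to 2227 and 2073 CPM in APP.3 and APP.4 and to 2210.1 and 2261 CPM in WT.1 and WT.2. APP.4 was the low library, and APP.3 lay between WT.1 and WT.2. The mean of APP differed from that of WT by -1.09% for complex I, -1.21% for complex II, -0.308% for complex III, -2.26% for complex IV and -3.82% for complex V. All 5 sums overlapped between the groups. Without APP.3 the log2 ratio of APP to WT was -0.03, -0.06, -0.05, 0.00 and -0.11 for complexes I to V, and without APP.4 it was 0.00, 0.02, 0.04, -0.07 and -0.01. The signs of complexes II, III and IV changed with the library that was left out, and the 0.00 of complex IV is a small positive value.

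**Figure D2:**
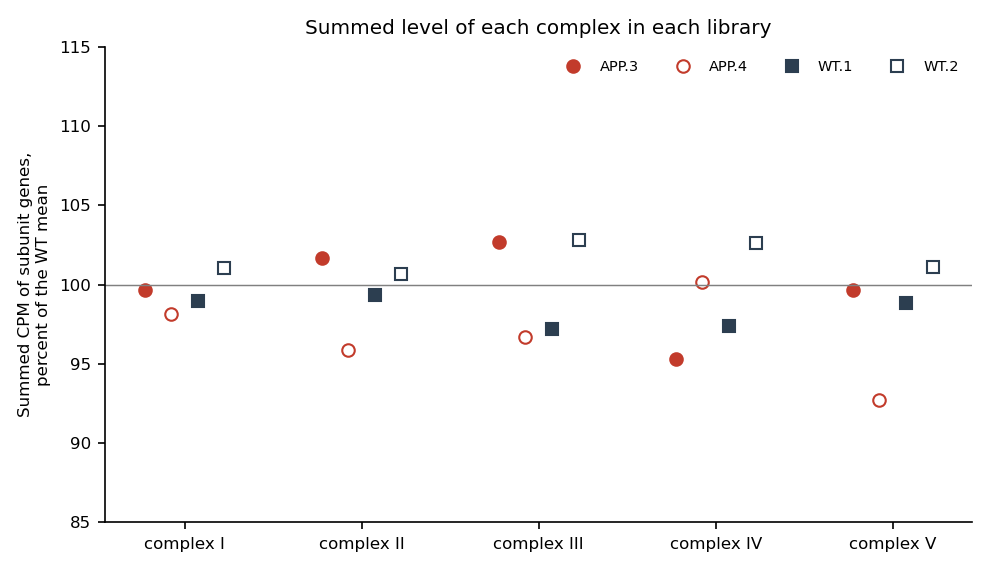
Summed CPM of the subunit genes of each complex in each of the 4 libraries, as a percentage of the WT mean (the y axis does not start at 0); red circles are APP and dark squares WT. The groups overlap in all 5 complexes, APP.4 is the lowest library in every complex except complex IV, and APP.3 is the lowest in complex IV.

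The proportions of the complexes to each other were similar in the 4 libraries. Complex V took 38.4% and 36.9% in APP and 38.4% and 38.1% in WT of the summed level of the 80 subunit genes, and complex I took 26.2% and 26.7% in APP and 26.3% and 26.0% in WT. Complex IV accounted for 18.6% and 20.2% in APP and 19.2% and 19.6% in WT. Complex III held 9.81% and 9.53% in APP and 9.36% and 9.60% in WT, and complex II 6.93% and 6.74% in APP and 6.82% and 6.70% in WT. The groups overlapped in each of these shares. Of the 10 log2 ratios between complexes, 2 did not overlap: complex V over complex II was 2.47 and 2.45 in APP and 2.49 and 2.51 in WT, and complex V over complex III was 1.97 and 1.95 in APP and 2.04 and 1.99 in WT. Both were lower in the APP libraries by less than 0.1 on the log2 scale and were not tested. The median log2 fold change of the genes was -0.01 for complex I, -0.04 for complex II, -0.01 for complex III, -0.05 for complex IV and -0.05 for complex V, and the differences between complexes were not tested.

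The promoters of these genes are shown because letters bound by several known regulators of respiratory genes are frequent in them. Promoter sequences from RefSeq on build GRCm38.p6, from 250 bases before to 50 bases after a gene's start, were matched for 74 of the 89 genes. On both strands, GCGCATGC, a core of the sites of nuclear respiratory factor NRF1, was found in 12 of 74 (16.2%) against 3.05% of all 27025 promoters. The ETS letters CCGGAAG, as recognised by GABP, were found in 18 of 74 (24.3%) against 9.93% of all 27025 promoters. YY1 letters, AAGATGG, were in 12 of 74 (16.2%) against 7.28% of all 27025 promoters, and AAGGTCA, the letters of estrogen-related receptors (ERR), in 8 of 74 (10.8%) against 5.38% of all 27025 promoters. The SP1 letters GGGCGG were present in 34 of 74 (45.9%) against 38.2% of all 27025 promoters, and CCAAT, as bound by NF-Y, in 33 of 74 (44.6%) against 41.1% of all 27025 promoters. The TATA letters TATAAA were in 6 of 74 (8.11%) against 15.7% of all 27025 promoters. These are matches of letters and not measured binding. Of the 12 promoters with the NRF1 letters, 3 were of complex I, 1 of complex II, 2 of complex III, 1 of complex IV, 3 of complex V and 2 of genes that are not subunits.

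For each complex, the stretch shown is the one with the most kinds of these letters among genes that had no library under 100 counts, kept to the bases that lie before the gene's annotated start and overlap no annotated gene. Capitals mark the matches on either strand. Ndufa6 (chr15:82354323-82354541, minus strand) has NRF1 and CCAAT letters, Sdhb (chr4:140961021-140961202, plus strand) has SP1 letters, Uqcr11 (chr10:80406831-80407071, minus strand) has ETS letters, Cox8a (chr19:7217617-7217866, minus strand) has CCAAT letters, and Atp5e (chr2:174464106-174464351, minus strand) has ETS, SP1 and CCAAT letters.
Ndufa6: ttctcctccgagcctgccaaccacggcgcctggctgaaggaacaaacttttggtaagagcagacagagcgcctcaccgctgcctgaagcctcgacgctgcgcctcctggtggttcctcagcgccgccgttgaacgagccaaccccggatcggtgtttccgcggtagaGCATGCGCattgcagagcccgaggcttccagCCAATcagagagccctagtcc
Sdhb: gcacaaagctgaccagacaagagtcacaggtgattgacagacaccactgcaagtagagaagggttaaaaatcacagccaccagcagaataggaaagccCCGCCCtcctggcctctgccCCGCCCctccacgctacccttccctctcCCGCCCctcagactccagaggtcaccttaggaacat
Uqcr11: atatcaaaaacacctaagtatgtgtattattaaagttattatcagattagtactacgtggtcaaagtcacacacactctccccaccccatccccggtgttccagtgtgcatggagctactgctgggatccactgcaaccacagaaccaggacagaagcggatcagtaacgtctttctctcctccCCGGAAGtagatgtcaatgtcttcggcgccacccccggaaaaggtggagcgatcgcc
Cox8a: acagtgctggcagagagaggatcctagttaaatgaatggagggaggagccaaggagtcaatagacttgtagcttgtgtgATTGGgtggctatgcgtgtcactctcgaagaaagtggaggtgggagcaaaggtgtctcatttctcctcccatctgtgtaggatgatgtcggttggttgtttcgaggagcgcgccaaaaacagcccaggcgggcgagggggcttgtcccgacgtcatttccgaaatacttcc
Atp5e: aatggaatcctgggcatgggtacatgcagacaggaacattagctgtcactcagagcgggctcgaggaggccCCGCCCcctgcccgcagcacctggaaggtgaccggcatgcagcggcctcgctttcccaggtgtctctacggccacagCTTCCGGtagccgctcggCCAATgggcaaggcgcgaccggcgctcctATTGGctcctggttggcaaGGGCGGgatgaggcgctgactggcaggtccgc

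Complex I, NADH:ubiquinone oxidoreductase, is built of a membrane arm that pumps protons and a matrix arm that oxidises NADH. Among its 36 counted nuclear genes, 13 had a positive and 23 a negative log2 fold change, from -0.16 to 0.16, and the 95% interval lay within a fold of 1.5 for all 36. The 7 genes of the catalytic core summed to 510.0 and 481 CPM in APP against 502 and 502 CPM in WT, and the 29 supernumerary genes to 1012 and 1018 CPM in APP against 1009 and 1042 CPM in WT. In the core APP.4 was the lowest library and APP.3 the highest, whereas the supernumerary sums of both APP libraries lay between those of WT.1 and WT.2. The 16 genes of the matrix arm summed to 786 and 764 CPM in APP against 785 and 790.3 CPM in WT and the 19 of the membrane arm to 702 and 699 CPM in APP against 692 and 715 CPM in WT, with overlap in both arms. The subunit gene of either arm with most counts was Ndufs1, which encodes the largest subunit and holds iron-sulfur clusters, with 159 and 145 CPM in the APP libraries and 149 and 143 CPM in the WT libraries. Its groups overlapped, and its log2 fold change was 0.06 (SE 0.07, adjusted p = 0.857).

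Of the complex I genes, Ndufa3, a small subunit of the membrane arm, had the highest fold change. It measured 21.8 and 24.6 CPM in the APP libraries and 21.2 and 20.4 CPM in the WT libraries, and the log2 fold change was 0.16 (SE 0.10, 95% interval -0.05 to 0.37, adjusted p = 0.603). In both APP libraries it was above both WT libraries by a small margin. Ndufc1, another membrane arm subunit, had the lowest, with 14.9 and 12.4 CPM in APP against 14.98 and 15.6 CPM in WT and a log2 fold change of -0.16 (SE 0.11, 95% interval -0.42 to 0.09, adjusted p = 0.676). Only APP.4 was clearly lower, since APP.3 was close to WT.1, and without APP.3 the value was -0.31. Ndufa7 (matrix arm) and Ndufb10 (membrane arm) were the other members of complex I with both APP libraries above WT, at 22.96 and 21.8 CPM in APP against 19.1 and 21.5 CPM in WT and 42.6 and 42.3 CPM in APP against 41.8 and 40.9 CPM in WT. In 6 of the 36 both APP libraries were below WT, among them Ndufa12, Ndufb9, Ndufc1, Ndufs4 and Ndufv1, and in 3 both were above, where 19.8% and 20.9% of all features had these orders. Ndufv1, a core subunit which binds NADH, had 80.7 and 78.3 CPM in APP against 83.1 and 81.2 CPM in WT and a log2 fold change of -0.05 (SE 0.07, adjusted p = 0.882). The groups of Ndufv1, Ndufc1 and Ndufb10 overlapped when levels were scaled to library totals without TMM. Per length, Ndufb9 was the most abundant gene of the complex, at 103 CPM per kb, with 68.2 and 71.5 CPM in the APP libraries and 75.2 and 73.9 CPM in the WT libraries and a log2 fold change of -0.09 (SE 0.07, adjusted p = 0.705).

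Complex II, succinate dehydrogenase, also works in the tricarboxylic acid cycle and is encoded by 4 nuclear genes. Sdha, the flavoprotein that oxidises succinate, had 263 and 241 CPM in the APP libraries and 249 and 249.8 CPM in the WT libraries, and APP.3 was the highest and APP.4 the lowest library (log2 fold change 0.02 (SE 0.07, adjusted p = 0.964)). Sdhb, the iron-sulfur subunit that carries electrons onwards, had 51.6 and 50.6 CPM in the APP libraries and 55.9 and 57.7 CPM in the WT libraries. The APP libraries were both lower than the WT libraries, and the log2 fold change was -0.15 (SE 0.07, 95% interval -0.31 to 0.01, adjusted p = 0.495). Of the membrane anchors that hold ubiquinone, Sdhd had 45.7 and 46.2 CPM in APP against 48.97 and 49.5 CPM in WT and was likewise lower in both APP libraries, with a log2 fold change of -0.10 (SE 0.07, adjusted p = 0.700). The other anchor, Sdhc, had 41.3 and 41.1 CPM in APP against 38.9 and 40.6 CPM in WT and was higher in both APP libraries, with 0.05 (SE 0.08, adjusted p = 0.887). The genes of this single enzyme thus had both signs, and 0 of 4 were called by edgeR, with 0 at an unadjusted p under 0.05 in that test, in DESeq2, in edgeR's exact test and in its earlier quasi-likelihood method. With all transcript types summed, Sdhb had one. Without APP.3 the log2 fold change of Sdhb was -0.17, and without APP.4 it was -0.14. Sdhb lies on the plus strand of chromosome 4 of GRCm38 (chr4:140961203-140979193), next to the promoter shown above.

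Complex III, ubiquinol:cytochrome c oxidoreductase, had the narrowest range, from -0.08 to 0.09 over its 8 genes, and 7 of them had overlapping groups. In 1 both APP libraries were higher and in 0 lower, where 20.9% and 19.8% of all features had these orders. It was Uqcrh, the hinge protein at cytochrome c1, with 94.8 and 94.4 CPM in the APP libraries and 86.2 and 92.1 CPM in the WT libraries. It was higher in each APP library than in either WT library, and the log2 fold change was 0.09 (SE 0.07, 95% interval -0.07 to 0.24, adjusted p = 0.738). Uqcrc1 and Uqcrc2 are the large core proteins that face the matrix. Uqcrc1 had the lowest fold change of the complex, with 112 and 102 CPM in APP against 107 and 119.6 CPM in WT and a log2 fold change of -0.08 (SE 0.08, adjusted p = 0.805). Uqcrc2, the member with most counts, had 174 and 148 CPM in APP against 159 and 162 CPM in WT and 0.00 (SE 0.08, adjusted p = 0.993), and APP.3 and APP.4 were its highest and lowest libraries. In the Rieske iron-sulfur protein gene Uqcrfs1, at 57.5 and 58.8 CPM in APP against 59.7 and 57.8 CPM in WT, the libraries differed by little. Uqcr10, Uqcr11, Uqcrb and Uqcrq, which encode small subunits, had log2 fold changes from -0.04 to 0.01.

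Complex IV, cytochrome c oxidase, differs from the other complexes in having alternative genes for several of its nuclear subunits, and 16 of its genes were counted. Cox8a, the ubiquitous form of the smallest subunit, had 95.7 and 117 CPM in the APP libraries and 119 and 124 CPM in the WT libraries. All libraries except APP.3 lay within a narrow range, and APP.4 was just below WT.1. The log2 fold change was -0.19 (SE 0.09, 95% interval -0.39 to 0.01, adjusted p = 0.493). With APP.3 left out it was -0.06, and with APP.4 left out -0.34, at an adjusted p of 0.000803 with edgeR. The log2 fold change of this gene thus came mostly from 1 library. Cox5a and Cox5b, subunits on the matrix side, were lower in both APP libraries, with 51.8 and 48.3 CPM in APP against 53.8 and 56.7 CPM in WT for Cox5a and 57.7 and 54.3 CPM in APP against 60.8 and 58.2 CPM in WT for Cox5b. With library totals in place of TMM the groups of Cox5b overlapped. Neither was called, at log2 fold changes of -0.14 (SE 0.08, adjusted p = 0.567) and -0.09 (SE 0.08, adjusted p = 0.758). Cox7c, a small membrane subunit, had the highest fold change of genes that had no library under 10 counts, with 36.5 and 37.7 CPM in APP against 31.8 and 36.2 CPM in WT and a log2 fold change of 0.13 (SE 0.09, adjusted p = 0.676). APP.3 was above WT.2 by less than 1 CPM. Under the same limit Cox6a2, with few counts, had the lowest log2 fold change, -0.26 (SE 0.42). Over all 16 genes the values ran from -0.51 to 0.32. Cox6c was at 134 and 134 CPM in APP against 127 and 143 CPM in WT, with overlapping groups.

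Among the alternative genes of complex IV, those used in most tissues took nearly all the counts. Cox4i1, the regulatory subunit of most tissues, had 209 and 222 CPM in APP against 212 and 213 CPM in WT and a log2 fold change of 0.02 (SE 0.06, adjusted p = 0.939), with overlapping groups that did not overlap by library totals (APP higher). Its alternative Cox4i2, known from lung and from responses to low oxygen, had 9 and 8 counts in APP and 12 and 6 counts in WT. Cox6a1 had 61.2 and 68.5 CPM in APP against 63.9 and 71.0 CPM in WT, with a log2 fold change of -0.06 (SE 0.09, adjusted p = 0.889), while the heart and muscle form Cox6a2 had 26 and 14 counts in APP and 41 and 23 counts in WT. For the next position, Cox7a2 had 72.7 and 73.6 CPM in APP against 70.5 and 76.5 CPM in WT and a log2 fold change of -0.01 (SE 0.07, adjusted p = 0.986), and the muscle form Cox7a1 had 12 and 15 counts in APP and 31 and 10 counts in WT. Cox7a2l, a relative that joins complexes III and IV into supercomplexes, had 86.9 and 95.7 CPM in APP against 84.2 and 88.2 CPM in WT (0.08 (SE 0.08, adjusted p = 0.775)), and its groups too overlapped with TMM and not by library totals. Cox7b had 89.8 and 82.9 CPM in APP against 83.4 and 90.9 CPM in WT (-0.01 (SE 0.08, adjusted p = 0.974)), and Cox7b2, known from testis, had 8 and 2 counts in APP and 13 and 6 counts in WT. The minor forms overlapped between the groups, and their intervals, such as -2.19 to 1.18 for Cox7b2, were too wide at these counts to show a difference of 1.5-fold. Cox6b1, on the side of cytochrome c, had 76.7 and 92.2 CPM in APP against 85.02 and 88.1 CPM in WT (-0.03 (SE 0.09, adjusted p = 0.937)). Ndufa4, long assigned to complex I and now to complex IV, had 105 and 106 CPM in APP against 110.0 and 114 CPM in WT, lower in both APP libraries by a small margin (-0.08 (SE 0.07, adjusted p = 0.731)). A further 4 of the 19 alternative genes listed for these positions and for subunit c of complex V, namely Cox6b2, Cox8b, Cox8c and Ndufa4l2, were not analysed here.

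Complex V, the ATP synthase, had the lowest sum relative to WT, and 12 of its 16 genes had a negative log2 fold change. The 5 genes of the F1 part, the head that makes ATP in the matrix with its central stalk, summed to 1488 and 1343 CPM in APP against 1466 and 1489 CPM in WT. Here APP.3 was level with WT.2 and only APP.4 was low. The 11 genes of the Fo part, which conducts protons, and of the peripheral stalk, which holds the head in place, summed to 739.9 and 730.1 CPM in APP against 744 and 772 CPM in WT. This sum was lower in both APP libraries than in either WT library, by -3.06% between the means, but the groups overlapped when levels were scaled to library totals without TMM. The catalytic subunit gene Atp5b, the most abundant of all members, had 718 and 645 CPM in the APP libraries and 711 and 709 CPM in the WT libraries and a log2 fold change of -0.06 (SE 0.07, adjusted p = 0.837). Without APP.3 its log2 fold change was -0.14 (adjusted p = 0.0564, edgeR). Atp5a1, which alternates with it in the head, was likewise lowest in APP.4, with 559 and 502 CPM in APP against 546 and 563 CPM in WT.

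The ring of subunit c, which turns as protons pass, is encoded by Atp5g1, Atp5g2 and Atp5g3, whose mature proteins are the same. Atp5g1 had 32.8 and 29.0 CPM in the APP libraries and 35.7 and 35.002 CPM in the WT libraries. It was lower in both APP libraries, APP.4 more so, and the log2 fold change was -0.19 (SE 0.09, 95% interval -0.39 to 0.00, adjusted p = 0.467), the lowest of complex V. Without APP.3 it was -0.29 (adjusted p = 0.0381, edgeR) and without APP.4 -0.11 (adjusted p = 0.630, edgeR). Atp5g3 had 72.5 and 70.1 CPM in APP against 75.1 and 79.5 CPM in WT, again lower in both APP libraries, with a log2 fold change of -0.12 (SE 0.07, adjusted p = 0.622). Atp5g2 had 27.3 and 23.9 CPM in APP against 23.8 and 25.3 CPM in WT and the highest fold change of complex V, 0.06 (SE 0.10, adjusted p = 0.884), with overlapping groups. Atp5g2 is uncertain because a counted copy, Gm10175, is 100% identical to its transcript and had 271, 285, 434 and 354 counts in APP.3, APP.4, WT.1 and WT.2, counted apart from Atp5g2 and equal to 38.7% of its own total. Atp5o, the subunit that ties the stalk to the head, had 71.6 and 73.4 CPM in APP against 78.6 and 82.3 CPM in WT. It was lower in both APP libraries, with a log2 fold change of -0.15 (SE 0.07, 95% interval -0.31 to 0.01, adjusted p = 0.479). Atp5d and Atp5e, subunits of the central stalk, and Atp5f1, of the peripheral stalk, were also below WT in both APP libraries, with log2 fold changes of -0.12, -0.07 and -0.05. By library totals the groups of Atp5f1 overlapped. In complex V as a whole, 6 of the 16 genes had this order with TMM (5 by library totals) and 0 the opposite one, where 19.8% (18.8%) and 20.9% (21%) of all features did, and 0 were called by edgeR, with 0 at an unadjusted p under 0.05 in that test, in DESeq2 and in edgeR's exact test. With edgeR's earlier quasi-likelihood method 1 gene, Atp5g1, had such a p. Atp5g1 also had one with at least 10 counts in every library, with all transcript types and with the most abundant transcript, and Atp5o in the first pair of these settings.

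The 8 assembly factors of complex I, which are not part of the finished complex, summed to 127 and 119 CPM in APP against 124 and 123 CPM in WT. The groups overlapped, and the median log2 fold change was -0.02. Ndufaf6 had the highest fold change of the members that had no library under 10 counts. It had 4.49 and 4.80 CPM in the APP libraries and 3.71 and 3.78 CPM in the WT libraries, or 130 and 149 counts in APP and 163 and 134 counts in WT. The groups did not overlap, with APP higher, and the log2 fold change was 0.31 (SE 0.16, 95% interval -0.04 to 0.66, adjusted p = 0.520). Ndufaf1, which acts in building the membrane arm, had 17.5 and 14.6 CPM in APP against 18.7 and 17.7 CPM in WT and a log2 fold change of -0.18 (SE 0.11, 95% interval -0.43 to 0.06, adjusted p = 0.606). APP.3 lay just below WT.2, the groups overlapped by library totals, and without APP.3 the value was -0.33 (adjusted p = 0.0760, edgeR). Ndufaf3 had 10.1 and 9.99 CPM in APP against 11.4 and 10.7 CPM in WT and was lower in both APP libraries. The other factors, Ndufaf2, Ndufaf4, Ndufaf5, Ndufaf7 and Ndufaf8, had overlapping groups. Atp5s, with 10.7 and 10.7 CPM in APP against 11.1 and 11.1 CPM in WT, had a log2 fold change of -0.06 (SE 0.11, adjusted p = 0.911).

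Levels of different genes were compared per length, as CPM per kb of transcript weighted by the counts of each listed transcript. The median over all libraries was 41.1 CPM per kb for complex I, 42.9 for complex II, 80.2 for complex III, 89.5 for complex IV and 98.8 for complex V, and 9.76 for the assembly factors. In single libraries this median was 41.1 and 40.9 CPM per kb in APP against 44.4 and 45.4 CPM per kb in WT for complex II and 97.7 and 96.4 CPM per kb in APP against 98.6 and 105 CPM per kb in WT for complex V, lower in both APP libraries for each, while the groups overlapped for complexes I, III and IV. By library totals without TMM those of complex V overlapped too, and these medians were not tested. The highest per length were Atp5b at 363, Cox4i1 at 287, Cox6c at 267 and Ndufa4 at 233 CPM per kb. Uqcrh led complex III at 190.5, and Sdha complex II at 86.4. At the other end, Cox4i2 and Cox7b2 were below 1 CPM per kb. Among genes of subunit c, Atp5g3 stood at 104, Atp5g2 at 49.9 and Atp5g1 at 7.62 CPM per kb. The value of Atp5g1 rests on a listed transcript of 4715 bases that took most of its counts, and that of Ndufb2 (5.04) on one of 4371 bases. The spread among the genes within complex IV was wider than any difference between the groups.

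**Figure D3:**
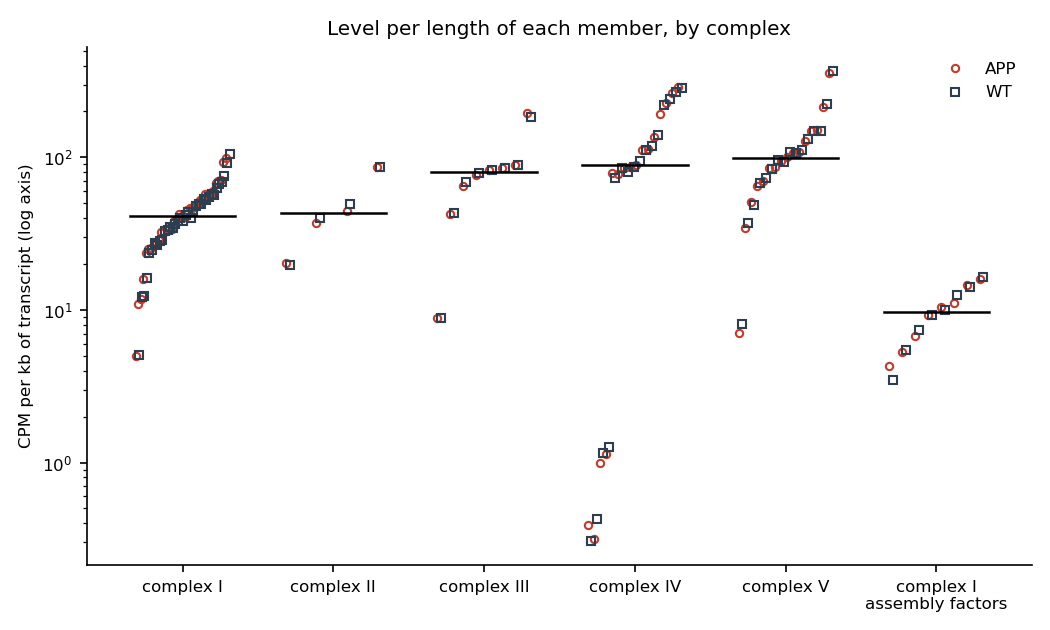
Level per length (CPM per kb of transcript, log axis) of each gene in the mean of APP (circles) and of WT (squares), ordered within each complex by level, with a black line at the median of the complex. The APP and WT symbols of a gene nearly coincide except at the lowest levels; the 4 points at the bottom of complex IV are Cox4i2, Cox6a2, Cox7a1 and Cox7b2.

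Among the members, the differences between libraries of the same group were related to the length of the transcript. Over 85 members with a mean of at least 100 counts, the Spearman correlation with length was 0.34 for the difference of APP.3 and APP.4 and 0.40 for that of WT.1 and WT.2. These correlations are across genes, which share their libraries and are not independent replicates. Over the 11588 protein-coding nuclear features of that depth they were -0.08 and 0.17. With the percentage of G and C bases, the correlations were -0.27 (APP) and 0.08 (WT) over the members. Over those features they were -0.12 and 0.01. Of 22 members of up to 600 bases, APP.3 was above APP.4 in 7 and WT.1 above WT.2 in 2. Of 36 members longer than 1000 bases, the numbers were 24 and 15, and the 27 between had 14 and 6. APP.3 was thus below APP.4 for most of the short messages, such as Cox8a, and above it for most of the long ones, such as Atp5b, with exceptions in both classes. With the log2 fold change between the groups, length had a correlation of -0.21 over the members and -0.02 over all such features. There were 126 protein-coding nuclear features of that depth and of up to 600 bases, the 22 members included. Their median log2 fold change was 0.10. Among the members of that length it was -0.01. The part of length or of base content in the levels of single genes was not tested.

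**Figure D4:**
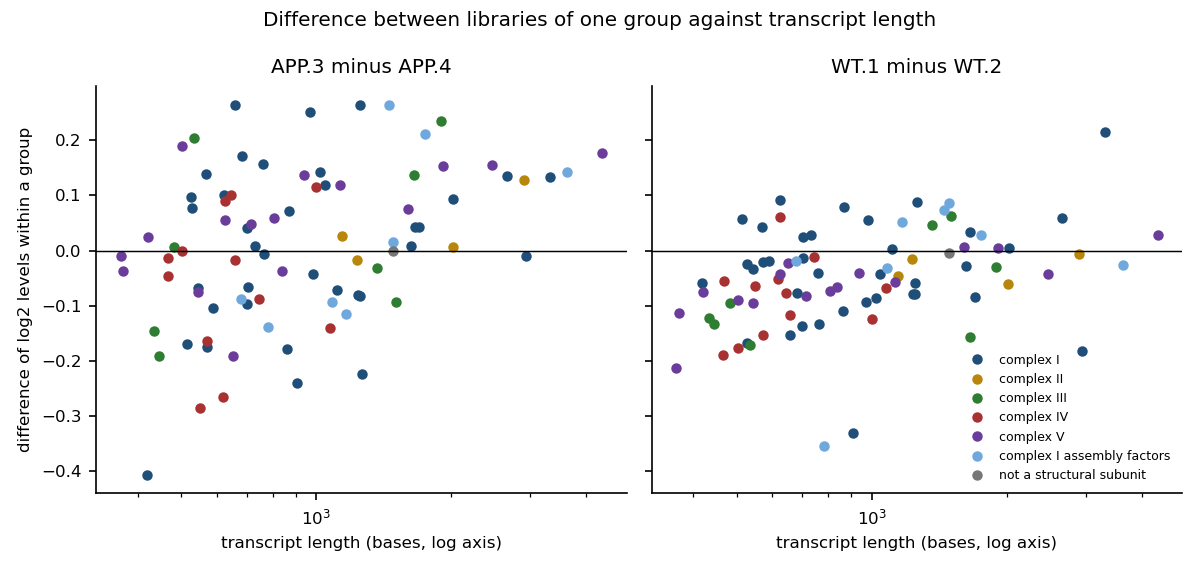
Difference of log2 level between the libraries of a group (left, APP.3 minus APP.4; right, WT.1 minus WT.2) against transcript length (log axis) for the 85 members with a mean of at least 100 counts, coloured by complex. Most of the short genes lie below 0 in both panels, and more of the long genes lie above 0 on the left.

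For 23 members more than a single protein-coding transcript was counted, and the share of the most abundant was compared. In 8 of the 23 the groups did not overlap, where 34.4% of all 4606 genes with more than a single such transcript had no overlap. Ndufb5, a membrane arm subunit of complex I, had 23.2 and 22.5 CPM in APP against 22.1 and 24.3 CPM in WT. Its most abundant transcript took 74.8% and 70.5% of its protein-coding counts in APP and 75.3% and 76.4% in WT. The low library was APP.4, and APP.3 was close to WT.1. In Uqcrh this share of the protein-coding counts was 54.7% and 54.0% in APP and 57.0% and 55.5% in WT. In Atp5j2, subunit f of complex V, it was 72.5% and 71.0% in APP and 73.3% and 73.6% in WT. Both APP libraries were lower in each of these genes, by a few percentage points at most. In Atp5d and Atp5j, also among the 8, the share was higher in both APP libraries. These shares were not tested. The levels of Ndufb5 and Atp5j2 as sums had log2 fold changes of -0.02 (SE 0.09, adjusted p = 0.965) and 0.02 (SE 0.08, adjusted p = 0.965).

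Other genes of the pathway and its surroundings were described as lists. The 13 subunits encoded by the mitochondrial genome summed to 25353 and 28045 CPM in APP against 27284 and 25706 CPM in WT, with overlap, a median log2 fold change of 0.15 and 0 called by edgeR (1 at an unadjusted p under 0.05). Of 9 counted subunits and electron carriers whose names fall outside the pattern, 0 were called by edgeR, with 0 at an unadjusted p under 0.05, and the sum was 319.5 and 314 CPM in APP against 310.3 and 324 CPM in WT. Among them cytochrome c1 (Cyc1), the subunit of complex III that hands electrons to cytochrome c, had 44.3 and 40.1 CPM in APP against 45.8 and 47.1 CPM in WT and was lower in both APP libraries (-0.14 (SE 0.08, adjusted p = 0.599)), and cytochrome c itself (Cycs) had 45.8 and 41.1 CPM in APP against 41.0 and 44.3 CPM in WT. Of 40 further assembly factors 38 were counted and 0 called, with 2 at an unadjusted p under 0.05, and they summed to 803 and 781 CPM in APP against 780.1 and 813 CPM in WT. The carriers of ATP, phosphate and outer membrane metabolites, 6 genes, summed to 1231 and 1116 CPM in APP against 1161 and 1225 CPM in WT, with 0 called and 0 at an unadjusted p under 0.05. The groups overlapped in these 3 nuclear lists.

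The 16 genes of the tricarboxylic acid cycle and pyruvate dehydrogenase, which feed electrons to the chain, summed to 1786 and 1729 CPM in APP against 1831 and 1820.1 CPM in WT. Both APP libraries were lower in this sum, 13 of the 16 log2 fold changes were negative with a median of -0.06, and 0 were called by edgeR (1 at an unadjusted p under 0.05). Of the 12 regulators of mitochondrial gene expression 0 were called by edgeR, with 0 at an unadjusted p under 0.05, a median log2 fold change of -0.03 and a sum of 234 and 236 CPM in APP against 239.5 and 238 CPM in WT. APP.4 was below WT.2 by less than 2 CPM in this sum, with APP.3 the lowest library, and the groups overlapped when levels were scaled to library totals without TMM. Among these the coactivator gene Ppargc1a had 31.7 and 33.1 CPM in APP against 36.6 and 31.3 CPM in WT (-0.07 (SE 0.09, adjusted p = 0.867)), with overlapping groups. Nrf1, whose letters were searched in the promoters, had 12.4 and 12.7 CPM in APP against 13.7 and 12.6 CPM in WT (-0.07 (SE 0.11, adjusted p = 0.885)), also with overlap. The estrogen-related receptor gene Esrra had 18.6 and 19.4 CPM in APP against 21.005 and 20.7 CPM in WT and was lower in both APP libraries (-0.13 (SE 0.09, adjusted p = 0.673)).

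Large complexes outside mitochondria gave a scale for these values. The 38 proteasome subunit genes had a median log2 fold change of 0.00 and a sum of 1998 and 1865 CPM in APP against 1867 and 1956 CPM in WT, and the one called was Psmb8, an inducible subunit of immune cells (1.42 (SE 0.22, adjusted p = 0.0126)). The 76 cytosolic ribosomal protein genes, also short and abundant, all had positive values with a median of 0.21, summed to 7401 and 7746 CPM in APP against 6398 and 6744 CPM in WT, and did not overlap between the groups in that sum. Rpl23 was called (0.40 (SE 0.08, adjusted p = 0.0373)), and 44 had an unadjusted p under 0.05. The oxidative phosphorylation genes, with 0 at that level and a median of -0.02, did not have this order of libraries, and the difference between the lists was not tested.

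**Figure D5:**
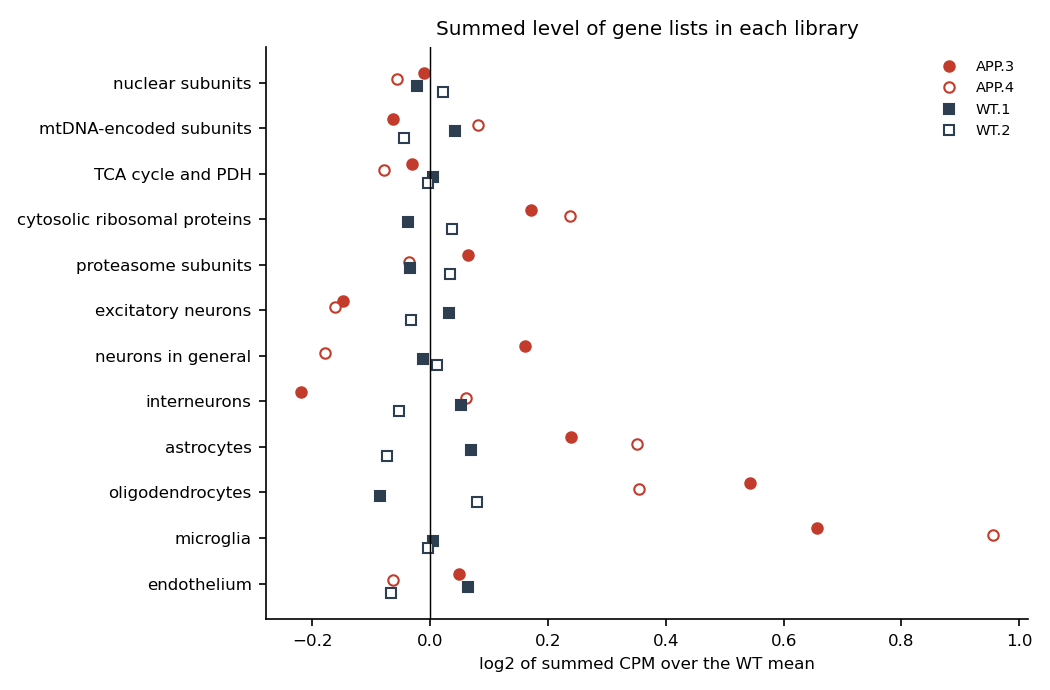
Log2 of the summed CPM of gene lists in each library over the WT mean (x axis), with APP as red circles and WT as dark squares. The nuclear subunit genes (the 80 known subunits) and those encoded by mitochondrial DNA overlap between the groups, whereas the sums for ribosomal proteins, astrocytes, oligodendrocytes and microglia lie higher in both APP libraries, and excitatory neuron markers lie lower in both.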

How the data were processed

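Cortex RNA of 2 APP and 2 WT mice was analysed from the number of reads on each transcript. The authors removed ribosomal RNA, sequenced strand-specific paired reads, aligned them with FANSe2 to Ensembl mouse RNAs with up to 7 mismatches (release not given in the sources used here), kept transcripts with at least 10 reads, and deposited the counts without normalization. The submitters' processing notes list hg19, CASAVA 1.8 and edgeR without a role. A further 4 columns of values per library, and the columns of the authors' own fold changes, mean levels, p-values and FDR, were not used. The APP columns were matched to their group only.

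The deposited gene symbols are of mixed case, and 8274 of the 37539 transcripts have none: the pattern taken literally finds 24 genes, in any case 72. Transcripts were therefore assigned to genes by identifier in GENCODE M21 (GRCm38; 681 did not match and were kept as features), in place of sums by symbol, which gave 89 genes and 124 protein-coding transcripts. The deposited symbols also match Emc8, Dmac2 and Gm11273, which were not counted as members.

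The analysis used edgeR 4.0.16 in R 4.3.3 (TMM, quasi-likelihood test, no covariate, at least 10 counts over the libraries, FDR under 0.05), with DESeq2 1.42.0 and limma 3.58.1, and Python 3.11.15 (numpy 2.4.6, pandas 2.3.3). Transcripts were compared with blastn 2.17.0 (at least 95% identity over 80% of the length). edgeR estimated a common dispersion of 0.00820 and 8.36 prior degrees of freedom. The tests were tested on simulated data. Alternatives were other tests, scalings and filters, all transcript types, the most abundant transcript, known subunits only, and each library left out. Sums by deposited symbol, the literal match and marker sums without Syt1, Gad2 or Rora were chosen after seeing the data.

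The members and lists were chosen with earlier results of these data known. Named genes were, by rule, those of highest and lowest fold change, most counts and highest level per length in each complex, all alternative subunits, the complex II genes, the 3 largest differences in transcript share, called genes of other lists, and App; the other genes named were chosen after their values were seen. Promoters are from RefSeq. Some genes are not reported here.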

Additional observations from a re-analysis of the deposited data

How the results depend on the processing

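With all 4 libraries kept, 0 members were called in either direction under every alternative run: DESeq2, edgeR's exact test and earlier quasi-likelihood method, library totals, RLE size factors, protein-coding scaling, at least 10 counts in every library, all transcript types, the most abundant transcript, known subunits, sums by deposited symbol, and the literal match. The members with an unadjusted p under 0.05 then numbered 0 to 3, namely Atp5g1, Atp5o or Sdhb, where 6.31% to 12.4% of features had one. Leaving out the filter changed nothing, since every deposited transcript has at least 10 counts. The median log2 fold change ran from -0.026 to -0.016 for all members, -0.020 to -0.0098 for complex I, -0.038 to -0.00099 for III, -0.051 to -0.035 for IV and -0.058 to -0.048 for V. For complex II it was 0.014 with sums by deposited symbol in any case, chosen after seeing the data, in place of -0.04: the deposited symbol of Sdhb does not match, which left 3 genes.

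When 1 library was left out, the members called lower ran from 0 to 1 (Atp5g1 without APP.3, Cox8a without APP.4), and those called higher were 0. The medians ran from -0.062 to 0.0021 for all members, -0.041 to 0.0044 for complex I, -0.077 to -0.027 for II, -0.047 to 0.020 for III, -0.063 to 0.0067 for IV and -0.092 to -0.026 for V; those of all members and of complexes I, III and IV were positive without WT.2, and that of III also without APP.3. The cause was not tested. No paired analysis was possible because the APP columns are numbered 3 and 4, numbers that the sample labels do not carry. At the depth of Cox4i2, Cox6a2, Cox7a1 and Cox7b2, at most 41 counts in a library, a difference of 1.5-fold was not detectable.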

Other observations

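Transcripts of other types, such as retained introns and targets of nonsense-mediated decay, were counted for 40 of the members. They were 93 transcripts and took 2.73% and 2.92% of the counts of all members in APP.3 and APP.4, and 2.76% and 2.70% in WT.1 and WT.2. APP.4 had the highest share, and the groups overlapped. As features of their own, 0 of the 40 were called by edgeR's quasi-likelihood test, where 1.19% of all features were, and 1, Ndufab1, had an unadjusted p under 0.05, where 10.9% of all features had one. It had 8.92 and 9.83 CPM in APP against 7.59 and 7.93 CPM in WT. Such transcripts held 59.5% of all counts of Ndufb5, 49.5% of those of Cox7c and 48.9% of those of Ndufb2. For Cox7c they had 36.7 and 36.9 CPM in APP against 32.1 and 33.5 CPM in WT, higher in both APP libraries like its protein-coding transcripts, with a fitted log2 change of 0.16 (adjusted p = 0.496, edgeR).

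The members lie on 19 chromosomes. Chromosome 2 holds 8 of them, and chromosomes 7, 13 and 17 hold 7 each. Chromosome X holds 3, which are Ndufa1, Ndufb11 and Cox7b, with log2 fold changes of -0.03, -0.05 and -0.01. The genes matched by deposited symbol alone had log2 fold changes of 0.04 for Emc8, -0.07 for Dmac2 and -0.08 for Gm11273, and none was called by edgeR.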
